A study of Morchella importuna with 4 samples.

Results

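Ribosome biogenesis genes of Morchella importuna, a cultivated morel, were compared between 2 areas of the colony. The genes were chosen by text alone, from the 2 gene descriptions of the deposited table, with words such as ribosome biogenesis, nucleolar, rRNA processing, U3, Brix, exosome, H/ACA, fibrillarin, SBDS and pseudouridine. Descriptions of ribosomal proteins, splicing factors and synthetases were left out. The rule gave 51 of the 11599 genes of the table, by words and not by values, though the words were chosen with earlier results of these data known.

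The strain was grown on PDA (potato dextrose agar) plates at 20 °C. Mycelium was taken at the sclerotial initiation stage, when the first sclerotia, hardened resting bodies of swollen cells, appear. SII is the centre of the plate, the sclerotial area, and SIO is the outer hyphal area. The areas share the strain, the medium and the temperature, and no transgene, mutation or treatment is named for either. Each library pooled mycelium of 2 Petri dishes, and each area had 2 libraries. The authors compared areas of the same plate, but the labels do not say which SII and SIO libraries share plates. The labels do not say whether libraries 1 and 2 came from separate culture rounds, so the p-values measure only the spread between these libraries. No markers of sclerotial or hyphal cells that are independent of these libraries were at hand, so the area labels were not checked against markers.

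A ribosome is built in the nucleolus. RNA polymerase I makes one long rRNA precursor, small nucleolar RNPs (snoRNPs) guide its methylation and pseudouridylation, and the small subunit processome, assembled around the U3 snoRNP, cuts out the small subunit rRNA. The large subunit follows its own path with Brix-domain proteins, GTPases and helicases. The exosome trims precursors and degrades spacers, and a last set of factors finishes the subunits in the cytoplasm. In budding yeast the assembly genes are known to be regulated as a group, alongside the ribosomal protein genes, with the rate of growth.

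Values are FPKM, fragments per kilobase of transcript, scaled to the mapped fragments of the library, and so are levels per length. Recovered whole reads totalled 24841181 and 23108142 in the SII libraries and 27992918 and 27579489 in the SIO libraries. The spread was wider in SII: over 8906 tested genes the log2 difference between the libraries of an area had an SD of 0.68 in SII and 0.23 in SIO. The labels name 4 libraries, but the authors' mean scaled read counts of SIO split into whole reads when a further SIO library was assumed, inferred to hold 21730674 reads. It has no FPKM values and was not used as a replicate, and its inferred values are given below beside the results that they touch. RNA was taken from whole tissue, so more or fewer cells of a kind and more or less RNA per cell cannot be told apart.

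All 51 genes reached an FPKM of 1 in 2 or more of the 4 libraries and were tested. A gene was called at a Benjamini-Hochberg adjusted p under 0.01 over all genes tested, by limma on log2(FPKM + 1), with a log2 fold change of at least 1 in either direction. A single gene, SBDS-like JGI 494516, was called higher in SII. Thus 1 of 51 genes was called higher, against 10.3% of all genes tested, and 0 of 51 were called lower, against 12.2%. Limma-voom on the recovered reads called the same gene higher and 0 lower. At an unadjusted p under 0.05, 15 of the 51 were higher (25.4% of all genes) and 7 were lower (33.1%). At an adjusted p under 0.05 with the same fold, 4 were higher (15.6% of all genes) and 2 were lower (21.1%). At an adjusted p under 0.05 with any fold, 11 were higher (21.8% of all genes) and 6 were lower (28.8%). Calls among the 51 genes and over all genes moved when single libraries were left out, as given at the end.

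Apart from SBDS-like JGI 494516, the differences between the areas were at most 3.475-fold in FPKM. A log2 fold change of at least 1 in either direction was found in 9 of the 51 genes, against 39.1% of all genes. Without the SBDS-like gene, the log2 fold changes ran from -1.51 to 1.21 with an SD of 0.66, and the SD over all genes tested was 1.44. The median was 0.07 over the 51 genes, 29 of them positive and 22 negative, and -0.11 over all genes. Of the 8906 genes tested, 4079 were positive and 4827 negative. Without SII library 1 the median of the 51 genes was -0.02, and without SII library 2 it was 0.29. For 20 of the 51 genes the 95% interval of the log2 fold change lay wholly between -1 and 1, against 26.4% of all genes. Both SII libraries lay above both SIO libraries in 21 of the 51 genes (35.6% of all genes), both lay below in 14 (43.9%), and the areas overlapped in 16.

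**Figure D1:**
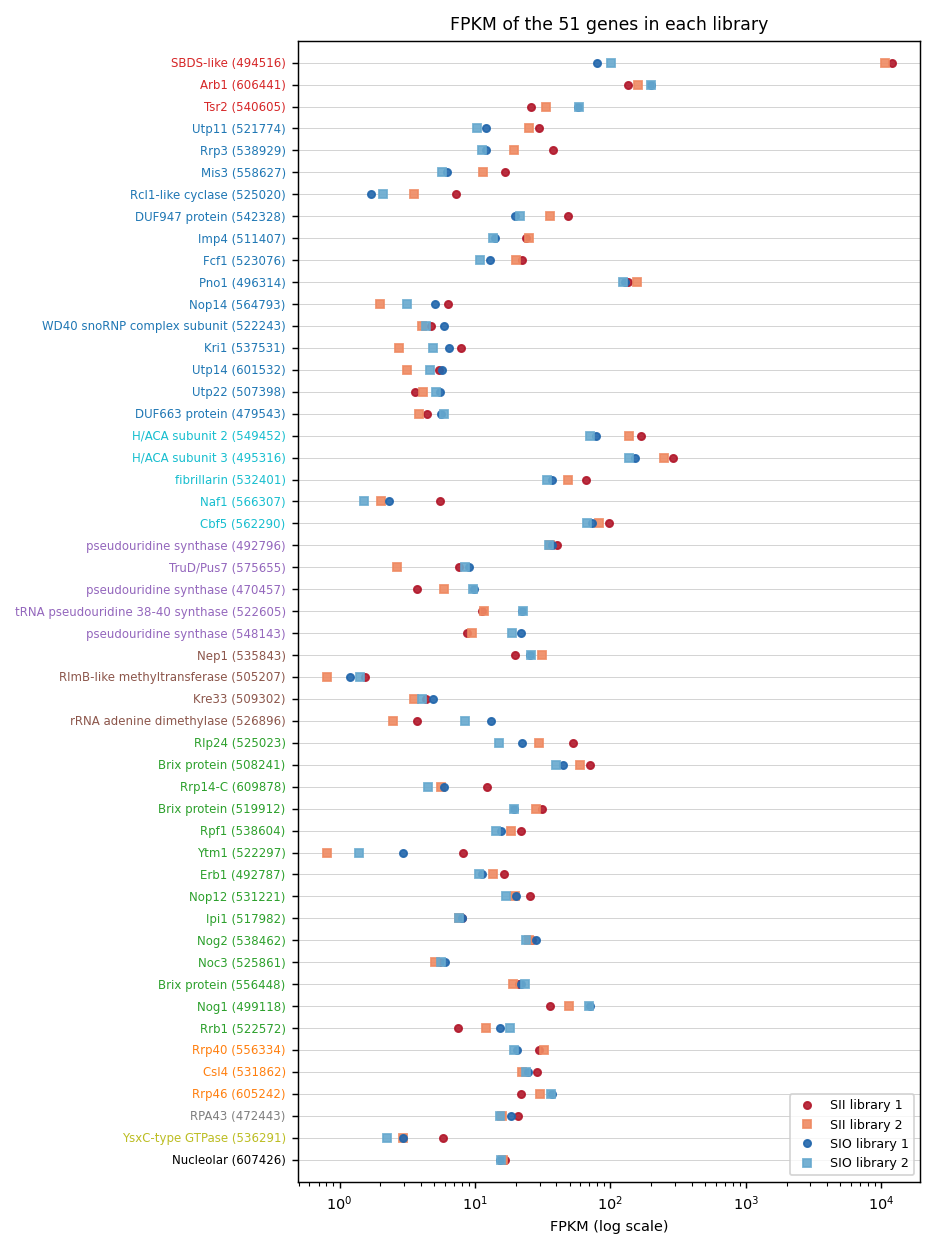
FPKM of each of the 51 genes in each library, on a log axis, with the genes grouped and coloured by role. SBDS-like JGI 494516 stands apart at 12036 and 10649 FPKM in SII against 79.1 and 101 FPKM in SIO, while the other 50 genes lie between 0.803 and 290.3 FPKM in every library.

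SBDS-like JGI 494516 was the one member that passed the threshold of the test. It is described as a DUF1960-domain protein and as ribosome maturation protein SBDS, the factor that, with a GTPase, releases initiation factor 6 from new large subunits. Its level was 12036 and 10649 FPKM in the SII libraries and 79.1 and 101 FPKM in the SIO libraries, with no overlap. The mean was 126 times higher in SII, with a log2 fold change of 6.97 (SE 0.21, 95% interval 6.42 to 7.52, limma adjusted p = 0.00079). It ranked 3 among all genes of both SII libraries, and 1866 and 1512 in the SIO libraries. It kept its call under every alternative tried except testing without a filter on low values, where none of 11599 genes was called in either direction and 5305 had an unadjusted p under 0.05.

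The length implied by its FPKM was 306 bases, the second shortest of the 51. Budding yeast has both Sdo1, the full-length SBDS orthologue, and Rtc3, a short protein made of the N-terminal SBDS domain alone. The 306 bases of JGI 494516 are nearer to the short Rtc3 type than to a full-length SBDS. The deposited descriptions do not say which of these it corresponds to, and no protein sequence was at hand. Its place among maturation factors thus rests on the description alone, and its function was not tested. No other gene of the table had SBDS or DUF1960 in its description.

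Its reads in SIO differed between libraries. Scaled as the authors scaled them, the reads of JGI 494516 were 86557 and 85683 in the SII libraries and 564 and 757 in the SIO libraries, and 6794 in the further SIO library. The further library thus lay above the SIO libraries used in the test and below the SII libraries. The authors' mean scaled counts, which include it, were 86120 in SII and 2705 in SIO, a ratio of 31.8. Initiation factor 6, JGI 532500, was not chosen by the rule. Its level was 75.9 and 92.3 FPKM in SII and 118 and 135 FPKM in SIO, both SII libraries being below both SIO libraries (log2 fold change -0.59, SE 0.18, limma adjusted p = 0.0503).

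The SBDS-like gene made up 87.6% and 87.3% of the summed FPKM of the 51 genes in SII and 5.36% and 7.12% in SIO. All 51 genes together took 1.496% and 1.32% of all FPKM in SII and 0.186% and 0.178% in SIO. Without it, the other 50 took 0.186% and 0.168% in SII and 0.176% and 0.165% in SIO. Those shares overlap, so the difference in the share of all FPKM came from this 1 gene. In FPKM, the other 50 summed to 1711 and 1548 in SII and 1397.5 and 1316 in SIO, without overlap. The sum over all genes was also higher in SII, at 919062 and 921729 FPKM against 795743 and 797690 FPKM in SIO. The median level of the other 50 genes was 20.4 and 17.4 FPKM in SII and 15.4 and 14.7 FPKM in SIO. With 2 libraries against 2, an exact two-sided permutation test cannot give a p below 0.33 for any such sum.

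**Figure D2:**
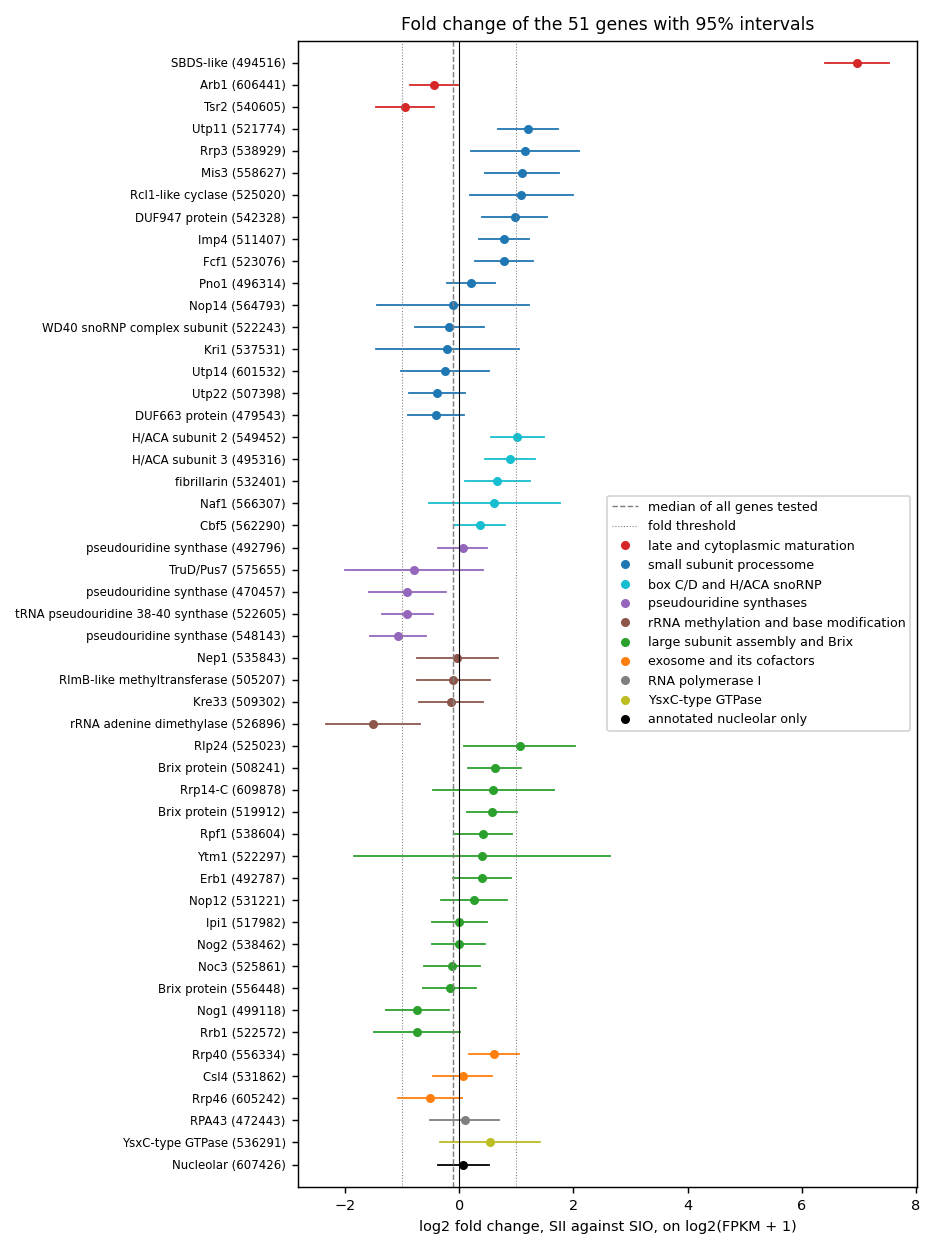
Log2 fold change of SII against SIO for each of the 51 genes, with the limma 95% interval as a line and colours for roles. Solid, dashed and dotted lines mark 0, the median of all genes tested (-0.11) and the fold threshold. Most intervals include 0, the 5 snoRNP genes all lie to the right of 0, and 4 of the 5 pseudouridine synthases lie to the left.

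Of the 14 genes of the small subunit processome, 8 had both SII libraries above both SIO libraries (35.6% of all genes) and 2 had both below (43.9%), with a median log2 fold change of 0.50. None was called. Utp11 JGI 521774, a U3-associated component, had 29.6 and 24.9 FPKM in SII and 12.03 and 10.4 FPKM in SIO. Both SII libraries were more than 2 times both SIO libraries. Its log2 fold change of 1.21 (SE 0.19) had the lowest adjusted p after the SBDS-like gene, 0.0103 by limma, just short of the threshold, and it was called under the stricter filter, either other scaling and some further settings. DUF947 protein JGI 542328, of the family of yeast Rrp36, had 48.3 and 35.6 FPKM in SII and 19.8 and 21.5 FPKM in SIO (log2 fold change 0.97, SE 0.21, limma adjusted p = 0.021). Pno1 JGI 496314, a KH-domain factor of small subunit maturation and the most abundant of the group, had 135 and 158 FPKM in SII and 129 and 124 FPKM in SIO. Its areas did not overlap, but the log2 fold change was 0.21 with a 95% interval from -0.21 to 0.63.

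Because each of the 51 genes is accounted for, further genes are named here after their values were seen. Mis3 JGI 558627, orthologous to yeast Krr1, was at 16.7 and 11.5 FPKM in SII and 6.17 and 5.74 FPKM in SIO. The DEAD-box helicase Rrp3 JGI 538929 was at 37.8 and 19.4 FPKM in SII and 12.1 and 11.3 FPKM in SIO. In both genes the SII libraries lay above the SIO libraries, by log2 fold changes of 1.10 (SE 0.24) and 1.15 (SE 0.35), with limma adjusted p of 0.022 and 0.052. The Rcl1-like cyclase JGI 525020, Fcf1 JGI 523076 and Imp4 JGI 511407, all processome components, had log2 fold changes of 1.08, 0.78 and 0.79, also without overlap of the areas.

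The other 6 processome genes had negative log2 fold changes, from -0.41 to -0.11, and each of their 95% intervals included 0. DUF663 protein JGI 479543, whose domain is that of the Bms1 and Tsr1 GTPase family, had 4.40 and 3.85 FPKM in SII and 5.63 and 5.95 FPKM in SIO (log2 fold change -0.41, SE 0.19, limma adjusted p = 0.13). Both of its SII libraries lay below both SIO libraries, but with the length trend removed its value was positive, 0.079. Utp22 JGI 507398 was alike, at -0.39. Utp14 JGI 601532, Kri1 JGI 537531, Nop14 JGI 564793 and the WD40 snoRNP complex subunit JGI 522243 overlapped between the areas. These 6 genes were 1851 to 3730 bases long, and the 8 processome genes with positive values were 726 to 1911 bases long.

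The 5 genes of the modification snoRNPs all had positive log2 fold changes, with a median of 0.67, and in 4 of them both SII libraries lay above both SIO libraries (35.6% of all genes). None was called. H/ACA subunit 2 JGI 549452 (Nhp2 in yeast), which binds the guide RNA, had 168 and 136 FPKM in SII and 77.7 and 71.1 FPKM in SIO. H/ACA subunit 3 JGI 495316 (Nop10 in yeast), the shortest of the 51 genes at 219 bases, had 290.3 and 250.4 FPKM in SII and 152 and 138 FPKM in SIO. These 2 were the snoRNP genes with the highest levels in SII, and their log2 fold changes were 1.02 (SE 0.18, limma adjusted p = 0.0119) and 0.89 (SE 0.16, adjusted p = 0.0137). H/ACA subunit 2 was called with median-ratio scaling.

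Cbf5 JGI 562290, the catalytic subunit of the same particle, had 97.7 and 82.5 FPKM in SII and 72.6 and 67.2 FPKM in SIO. Its log2 fold change of 0.36 (SE 0.16, limma adjusted p = 0.14) was the lowest of the group, and its 95% interval ran from -0.08 to 0.80. Fibrillarin JGI 532401, the methyltransferase of box C/D snoRNPs, was at 66.6 and 48.5 FPKM in SII and 36.9 and 33.9 FPKM in SIO, a log2 fold change of 0.67. Naf1 JGI 566307, an assembly factor of H/ACA particles, overlapped between the areas, at 5.48 and 2.02 FPKM in SII and 2.32 and 1.51 FPKM in SIO. A Gar1-domain gene, JGI 563575, the remaining core subunit of H/ACA particles, was not chosen by the rule. Its log2 fold change was 0.63 (limma adjusted p = 0.063), with 67.9 and 49.5 FPKM in SII and 37.5 and 36.7 FPKM in SIO.

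Genes grouped as stand-alone pseudouridine synthases, a kind that modifies tRNA and other RNA without a guide, mostly stood on the other side of 0. The grouping rests on the descriptions, some of which say only pseudouridine synthase. Of 5 genes, 4 had both SII libraries below both SIO libraries (43.9% of all genes), and the median log2 fold change was -0.91. None was called. JGI 548143, described only as a pseudouridine synthase, had 8.81 and 9.46 FPKM in SII and 21.9 and 18.9 FPKM in SIO, 2.23 times higher in SIO (log2 fold change -1.07, SE 0.19, limma adjusted p = 0.0120). Its log2 fold change was -1.03 without SII library 1 and -1.12 without SII library 2. The tRNA pseudouridine synthase JGI 522605 had 11.3 and 11.6 FPKM in SII and 22.2 and 22.5 FPKM in SIO, with nearly the same level within each area (log2 fold change -0.91, SE 0.17, adjusted p = 0.0139). JGI 470457 was also at -0.91, with an SE of 0.25.

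TruD/Pus7 JGI 575655 was at 7.64 and 2.67 FPKM in SII and 9.04 and 8.49 FPKM in SIO, and its 95% interval, from -2.00 to 0.41, included 0. The most abundant synthase, JGI 492796, did not differ beyond its spread. It had 40.1 and 35.6 FPKM in SII and 37.1 and 35.0 FPKM in SIO, a log2 fold change of 0.07. With Cbf5 counted among them, as its description also says pseudouridine synthase, the median of the 6 was -0.85. The guided enzyme, Cbf5, was thus at 0.36 while 4 of the genes grouped as stand-alone lay between -1.07 and -0.79. These values were set side by side after they were seen, and the difference was not tested.

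The 4 genes of rRNA methylation and base modification had a median of -0.12. The largest negative value of the 51 genes was that of the rRNA adenine dimethylase JGI 526896, at 3.73 and 2.46 FPKM in SII and 13.1 and 8.39 FPKM in SIO. Its mean was 3.475 times higher in SIO, with no overlap (log2 fold change -1.51, SE 0.31, limma adjusted p = 0.018). It was not called in the main fit. Its log2 fold change was -1.73 without SII library 1 and -1.28 without SII library 2. Enzymes of this family act on cytosolic or on mitochondrial rRNA, and the description does not say on which. In the further SIO library its scaled reads were 106, below 357 and 240 in SIO libraries 1 and 2. The SII libraries had 102 and 75.5 scaled reads, so the further SIO library lay close to SII library 1. The authors' mean scaled counts, which include it, were 88.9 in SII and 234 in SIO, a ratio of 0.38.

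Nep1 JGI 535843, a small subunit rRNA methyltransferase, had 19.9 and 31.5 FPKM in SII, on either side of 25.4 and 25.9 FPKM in SIO. Its log2 fold change of -0.03 was positive under both other scalings, so it has no direction. Kre33 JGI 509302, an rRNA acetyltransferase, and an RlmB-like methyltransferase, JGI 505207, of a bacterial and mitochondrial type, overlapped as well, at -0.14 and -0.10.

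The next group holds 14 genes of large subunit assembly and of the Brix family. Both SII libraries lay above both SIO libraries in 5 (35.6% of all genes) and below in 4 (43.9%), with a median log2 fold change of 0.33 and no call. Rlp24 JGI 525023, an assembly factor that leaves the large subunit in the cytoplasm, had 52.6 and 29.5 FPKM in SII and 22.4 and 15.1 FPKM in SIO. This was the highest of the group, at 1.06 (SE 0.36, limma adjusted p = 0.069), and also one with a wide spread within SII. Brix protein JGI 508241 had 71.3 and 60.1 FPKM in SII and 44.7 and 39.7 FPKM in SIO (log2 fold change 0.62, SE 0.17, adjusted p = 0.040).

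Counted across roles, 5 of the 51 genes carry a Brix domain, the fold shared by a family of rRNA-binding assembly factors, Imp4 among them. In 4 of the 5, both SII libraries were above both SIO libraries (35.6% of all genes), and their median log2 fold change was 0.57. Brix protein JGI 519912 had 31.1 and 28.1 FPKM in SII and 19.5 and 19.5 FPKM in SIO (log2 fold change 0.57, SE 0.16, limma adjusted p = 0.044). The exception was Brix protein JGI 556448, at 21.3 and 19.0 FPKM in SII and 21.95 and 23.6 FPKM in SIO, a log2 fold change of -0.17.

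Nog1 JGI 499118 was among the factors on the other side. This GTPase of early large subunits had 36.0 and 49.2 FPKM in SII and 71.3 and 70.1 FPKM in SIO, with no overlap (log2 fold change -0.73, SE 0.21, limma adjusted p = 0.041). Rrb1 JGI 522572, known in yeast as the chaperone of a large subunit protein, had 7.52 and 12.2 FPKM in SII and 15.4 and 18.1 FPKM in SIO (log2 fold change -0.74, SE 0.28, adjusted p = 0.088). Nog2 JGI 538462, the GTPase that follows Nog1 in yeast, was at -0.01 with a 95% interval from -0.47 to 0.46. The 2 GTPases of the same path thus had values of -0.73 and -0.01, and the difference between them was not tested.

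Erb1 JGI 492787 and Ytm1 JGI 522297 encode partners in one complex in yeast, and had nearly the same log2 fold change, 0.40 in each. Their spread was not the same. Erb1 had 16.3 and 13.5 FPKM in SII and 11.3 and 10.7 FPKM in SIO, while Ytm1 had 8.13 and 0.803 FPKM in SII and 2.92 and 1.40 FPKM in SIO. The SE of Ytm1 was 0.84, so its value carries no direction. Rpf1 JGI 538604, Rrp14-C JGI 609878, Nop12 JGI 531221, Ipi1 JGI 517982 and Noc3 JGI 525861 lay between -0.12 and 0.60, and the 95% interval of each included 0.

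The 3 exosome genes covered both directions. Rrp40 JGI 556334, a cap subunit, had 29.7 and 32.4 FPKM in SII and 20.4 and 19.5 FPKM in SIO (log2 fold change 0.61, SE 0.16, limma adjusted p = 0.036). Rrp46 JGI 605242, a subunit of the ring, had 22.1 and 30.1 FPKM in SII and 37.2 and 36.6 FPKM in SIO (log2 fold change -0.50, SE 0.21, adjusted p = 0.11). The areas overlapped for neither. Csl4 JGI 531862, the other cap subunit described, overlapped, at 0.06. The summed FPKM of the 3 genes was 80.4 and 84.9 in SII and 82.2 and 79.9 in SIO.

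RPA43 JGI 472443, the subunit through which RNA polymerase I is recruited, had 20.9 and 15.7 FPKM in SII and 18.5 and 15.3 FPKM in SIO, with a log2 fold change of 0.10 (95% interval -0.51 to 0.70). Its sign was negative without SII library 1 or SIO library 2. Nucleolar JGI 607426, for which the description gives no function, had 16.1 to 16.7 FPKM in SII and 15.4 to 15.7 FPKM in SIO. The YsxC-type GTPase JGI 536291, of a family known from bacteria and organelles, had 5.78 and 2.94 FPKM in SII and 2.92 and 2.24 FPKM in SIO.

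Among the late factors, the 2 beside the SBDS-like gene had negative values. Tsr2 JGI 540605, in yeast the escort of a small subunit protein, had 25.9 and 33.7 FPKM in SII and 57.7 and 58.2 FPKM in SIO, 1.94 times higher in SIO (log2 fold change -0.95, SE 0.19, limma adjusted p = 0.018). Arb1 JGI 606441, an ATPase of the ABC family that acts on both subunits and the most abundant member in SIO, had 134 and 159 FPKM in SII and 199 and 199 FPKM in SIO (log2 fold change -0.44, SE 0.16, adjusted p = 0.077). For both genes the SII libraries lay below the SIO libraries, and neither was called.

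The log2 fold change was lower in longer genes among the 51, and over all genes. Spearman's rho was -0.38 over the 51 genes, -0.34 over the 50 without the SBDS-like gene, and -0.19 over 8905 tested genes with a recovered length. These are descriptions across genes, which share the same 4 libraries and are not independent. Of the 12 members under 1000 bases, 10 were positive, with a median of 0.70, against 0.14 over all genes of that length. Among all genes of that length 1633 of 3008 were positive. Of the 10 members of 2000 bases or more, 1 was positive, with a median of -0.32, against -0.39 over all such genes. Among all such genes 728 of 2170 were positive. The 29 members between had a median of 0.36 against -0.11. Removing the trend of the fold change with length moved the median of all genes by 0.14, gave a median of 0.30 and 38 positive values for the 51 genes, and added Utp11 to the calls. The part of length in the values of any one gene was not tested.

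**Figure D3:**
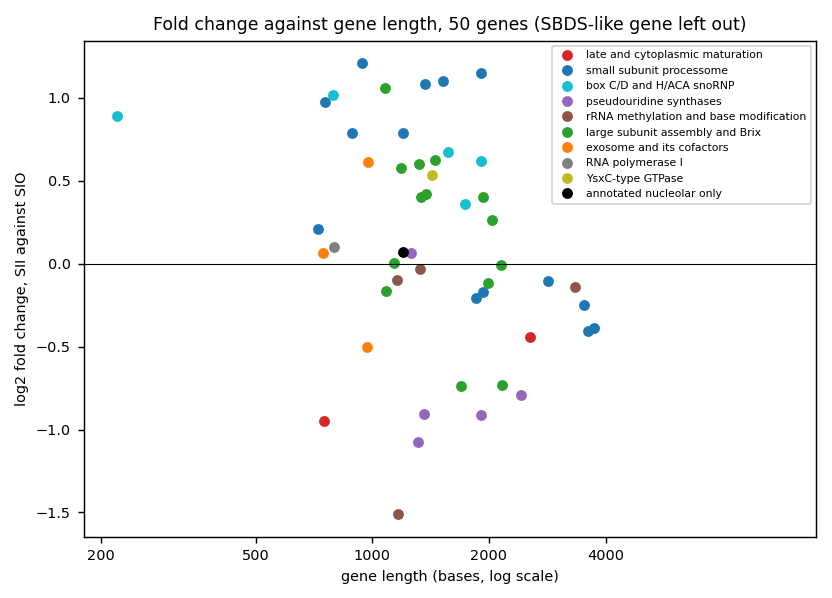
Log2 fold change of SII against SIO by gene length in bases (log axis) for 50 genes, coloured by role; the SBDS-like gene is left out. All but 1 of the 10 genes of 2000 bases or more lie below 0, and 4 of the 5 pseudouridine synthases lie at -0.79 or lower.

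Most of the 51 genes differed in the same direction between the libraries of an area. SII library 1 was above SII library 2 in 38 of them (74.5%, against 52.0% of all genes tested), and SIO library 1 was above SIO library 2 also in 38 (74.5%, against 59.6%). Across the 51 genes the log2 difference within SII and that within SIO had a Pearson's r of 0.60 and a Spearman's rho of 0.55, and over all 8906 genes tested 0.20 and 0.16. Without the SBDS-like gene and Ytm1, r was 0.52 over 49 genes. The genes share the same libraries, so these are descriptions.

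The level was more than 2 times higher in SII library 1 than in SII library 2 for 7 members (13.7%, against 8.9% of all genes). It was less than 1/2 for 0 members, against 694 of 8906 genes. The largest ratio was that of Ytm1, 10.1, followed by Nop14 with 3.14, Kri1 with 2.88 and TruD/Pus7 with 2.86. For Ytm1, Nop14, Kri1 and TruD/Pus7 the spread within the sclerotial area was larger than the difference between the areas. The further SIO library lay on the low side as well. Its scaled reads were below those of both other SIO libraries in 41 of the 51 genes (80.4%, against 43.8% of 8905 genes) and above both in 8 (15.7%, against 40.5%). It was below 1/2 of the lower of them in 7 genes, against 381 of 8905 over all genes. For Ytm1 its scaled reads were 9.57 against 90.8 and 45.9. The further library is thus lower for most members, and higher for the SBDS-like gene.

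**Figure D4:**
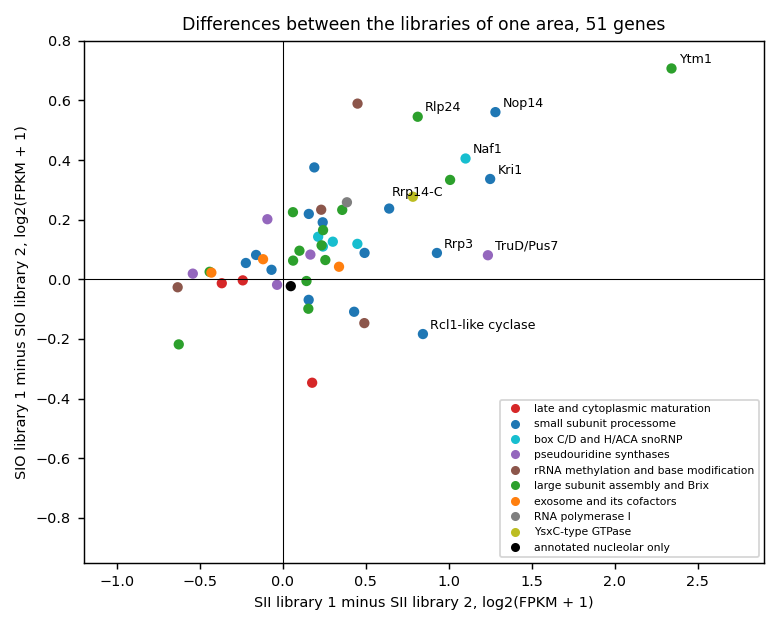
Difference between library 1 and library 2 of SII (x axis) and of SIO (y axis) in log2(FPKM + 1), 1 point per gene, coloured by role. Most of the 51 points lie to the right of 0 and above 0, and Ytm1 is farthest out.

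Assembly factors outside the rule had values in the range of the 51 genes. A text pattern for ribosome assembly factors outside the rule, such as Mpp10, Mak16, Nip7, Ebp2 and the RIO kinases, gave 32 genes, of which 31 were tested. None was called by either fit, 7 were higher (25.4% of all genes) and 1 lower (33.1%) at an unadjusted p under 0.05, and the median log2 fold change was 0.10, with 17 positive and 14 negative values. At an adjusted p under 0.05 with the same fold, 2 were higher (15.6% of all genes). The most abundant were the Dbp2-like helicase JGI 202999, at 284 and 187 FPKM in SII and 183 and 150.4 FPKM in SIO (log2 fold change 0.48), and JGI 539479, at 0.10. The pattern took JGI 539479 for its name, dim1, but its description is that of a mitosis protein with a thioredoxin fold. SII library 1 was above SII library 2 in 74.2% of the 31 genes, and SIO library 1 above SIO library 2 in 67.7%.

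Genes whose descriptions name a ribosomal protein were set beside the 51 genes, not all of which are known to act in ribosome assembly. This text list was not trimmed, and it also holds organellar types and other proteins that only share a ribosomal protein domain. Of 92 tested, 79 had a negative log2 fold change, against 4827 of 8906 over all genes. Both SII libraries lay below both SIO libraries in 67 (43.9% of all genes) and above in 12 (35.6%). The median was -0.60, against 0.07 for the 51 genes and -0.11 for all genes. The median of the mean level was 286.6 FPKM in SII and 471.7 FPKM in SIO. Of these, 1 was called lower (12.2% of all genes) and 0 higher (10.3%), and 42 were lower (33.1%) and 8 higher (25.4%) at an unadjusted p under 0.05. The called gene was acidic protein P0 JGI 547482, at 278 and 382 FPKM in SII and 835 and 918 FPKM in SIO (log2 fold change -1.42, SE 0.22, limma adjusted p = 0.0092). The count of ribosomal protein genes called lower was 0 with no filter, with median-ratio scaling, without the trend, with the length trend removed and with the library number as a replicate block. It also moved when an SII library was left out, as did the counts over all genes. Within the areas, library 1 was above library 2 in 19.6% of the ribosomal protein genes in SII and 16.3% in SIO, against 74.5% of the 51 genes in each. The difference between the 2 groups of genes was not tested.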

How the data were processed

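The authors mapped clean paired-end reads to the M. importuna genome (TopHat2 2.1.0 in the submitters' processing notes) and deposited FPKM per library. The program that counted reads is not given in the sources used here. The authors also deposited signal values, mean scaled read counts per area. Their fold changes, p-values and adjusted p-values, which hold their own comparison of the areas, were not used. The FPKM columns name an area and a library number but could not be tied to single sample titles, so each library is a replicate of its area.

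Whole reads and gene lengths were recovered from the mean scaled counts and FPKM, 100% of values being whole within 0.01 of a read. The depth was 23108142 to 27992918 reads. A table-wide fit used limma 3.58.1 in R 4.3.3 on log2(FPKM + 1), for the 8906 genes that reached FPKM 1 in 2 or more of the 4 libraries, with area as the only term and a mean-variance trend. A fold change on this scale understates the change of low genes. Calls needed a Benjamini-Hochberg adjusted p under 0.01 together with a log2 fold change of 1 or more in either direction. Summaries used pandas 2.3.3, numpy 2.4.6, scipy 1.17.1 and matplotlib 3.10.9. The fit was also run on simulated data with independent noise between genes, and no result here rests on that run.

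The members, lists and tests were chosen with earlier results of these data known. Named genes were the called members, the 2 most abundant members of each role, the highest and lowest log2 fold change of each role with at least 3 members, and the 2 most abundant genes of the outside list. Every other gene named was chosen after its values were seen. Alternatives were a pseudocount of 0.1, no filter or FPKM of at least 5, median-ratio or quantile scaling, no trend, a replicate block, leaving out each library and an adjusted p under 0.05. Limma-voom on recovered reads and removal of the length trend (loess span 0.5) were added after seeing the data. No sequences were at hand for these gene models.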

Additional observations from a re-analysis of the deposited data

Results flagged for a closer look

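The scaled reads of SBDS-like JGI 494516 in the further SIO library, which is inferred from the mean scaled counts and not used in the comparisons, were 6794, above 564 and 757 in SIO libraries 1 and 2. The signal is in data outside the main measurement. Recovered reads of the gene, before scaling, were 5678 in that library, and 683 and 858 in SIO libraries 1 and 2.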

How the results depend on the processing

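With 2 libraries an area, single libraries moved most counts. Leaving out each library in turn gave 1 to 11 of the 51 genes higher, 0 to 5 lower, 0 to 4 higher among the 31 assembly factors outside the rule, and a median log2 fold change of the 51 genes from -0.018 (without SII library 1) to 0.29 (without SII library 2). Over all genes these fits called between 76 and 1778 higher and between 2 and 2133 lower, and the lone library is assumed there to vary like the other area. The number of the 51 genes called higher was 0 with no filter, 2 with FPKM of at least 5, 3 with median-ratio scaling, 2 with quantile scaling, 2 without the trend, 2 with the length trend removed and 4 at an adjusted p under 0.05. At that threshold 2 of the 51 were lower and 2 assembly factors outside the rule were higher.

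The split over all genes, 914 higher and 1084 lower, was 981 and 743 with median-ratio scaling, 966 and 872 with quantile scaling and 964 and 644 with the length trend removed. The median of the 51 genes was 0.30 with the length trend removed and 0.30 as the log2 ratio of the authors' mean scaled counts. The percent of all FPKM without the most abundant member was 0.177% in SII and 0.170% in SIO.

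The sign of JGI 535843 turned with median-ratio scaling (0.060), quantile scaling (0.085), the length trend removed (0.089) and without SII library 1 (0.29, and -0.35 without SII library 2). That of JGI 472443 turned without SII library 1 (-0.094) and SIO library 2 (-0.030), and that of JGI 492796 without SII library 1 (-0.018, and 0.15 without SII library 2). With the length trend removed, JGI 479543 was at 0.079 and JGI 539479 at -0.057. The cause was not tested in any of these. Library numbers were not shown to pair the samples: with only 2 pairs, the differences within the areas had an r of 0.20 over all genes. The replicate block gave 1 of the 51 genes higher and 1 lower (JGI 526896), and 845 higher and 1105 lower over all genes, and ended the call of ribosomal protein P0 JGI 547482. Ytm1 had 272 and 25 recovered reads in SII and 110 and 52 in SIO. Naf1 had 262 and 90 in SII and 125 and 80 in SIO. Whether depth has a part in their spread was not tested.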
